A study of Mus musculus with 18 samples.

Results

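C2C12 is a line of mouse myoblasts that leaves the cell cycle and forms myotubes when serum is withdrawn, and MUNC is a noncoding RNA encoded next to the muscle regulator gene Myod1. The data described here ask which parts of that differentiation response differ in cells that overexpress the genomic form of MUNC. Of the 18 RNA-seq libraries of the study, 12 enter the comparison: 3 of control cells and 3 of MUNC genomic cells in growth medium (GM), and 3 of each in differentiation medium (DM3). All genes were kept that reached 0.5 FPM (fragments scaled to the size of the library) in at least 3 of the 18 libraries. For each of these 13869 genes, the response of a line is its mean DM3 level minus its mean GM level on log2(FPM + 1). The interaction is the response of the MUNC genomic line minus the response of the control line.

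All 4 groups are C2C12 cells of a stock that the labels call PAX7 NEG. Control cells carry the genotype label Wild-type, and the others the label MUNC genomic overexpressing. GM held 20% fetal bovine serum, and DM3 cells had spent 3 days in medium with 2% horse serum. The vector, its promoter and the number of clones behind the overexpressing line are not given in the sources used here, so the effect of the RNA and a property of that line cannot be told apart. The level of MUNC itself was not analysed here. A further 6 libraries, of cells overexpressing spliced MUNC, served to share the estimate of spread and for 1 test, of the genomic against the spliced response, which uses no control library.

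As background, myoblasts commit through the MyoD family of transcription factors: Myf5 and Myod1 mark the dividing cell, Myog switches on as it leaves the cycle, and the genes of the sarcomere, of calcium release and of the neuromuscular junction follow. Id proteins, Notch and FGF signals hold the cell in division. Around this core, differentiating cells also remodel their matrix, change the semaphorins, netrins and ephrins on their surface and shift lipid and mitochondrial genes. Interferon-stimulated genes, which cells express in defence against viruses, are treated here only at the end.

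The 12 libraries held 47534027 to 68788327 reads. Libraries of a group correlated at r = 0.986 to 0.996 over the tested genes and libraries of different groups at 0.878 to 0.970. The first 2 principal components held 50.5% and 37.2% of the variance. The labels state 3 biological replicates a group and number them. Beyond that they do not say whether the replicates came from separate cultures, so the p-values measure the spread between these samples. The muscle label was checked on defining genes. Des, the muscle intermediate filament, ranged from 16.0 to 92.0 FPM in control and from 332.5 to 1010 FPM in genomic libraries. Myf5 ranged from 66.0 to 109.9 FPM in control and from 20.0 to 34.5 FPM in genomic libraries. Myod1 was at most 0.221 FPM in any control library, and Myh8, the perinatal myosin, had no read in any of the 12. Of 31 markers of blood, endothelial, epithelial, fat and nerve cells, 10 passed the filter. Their summed level was 25.7 to 90.98 FPM in control and 32.7 to 117 FPM in genomic libraries. Krt14, a keratin, ranged from 23.5 to 79.8 FPM in GM and was at most 1.56 FPM in DM3. Cdh5 and Krt8 were higher in every genomic than in every control library, and Adipoq and Cd3e had no read. Of the 10 tested, Mbp (-0.81, at most 2.21 FPM) was called lower for the interaction defined above. The part of these markers in the results below was not tested.

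In each line taken alone most genes responded, at a Benjamini-Hochberg adjusted p under 0.05 in limma. In control 58.2% of the tested genes changed (29.6% rose and 28.6% fell), and in genomic cells 51.4% (26.3% and 25.1%). The 3 GM and 3 DM3 libraries stood wholly apart in 62.4% of genes in control and 62.8% in genomic cells, so a lack of overlap alone is common. The interaction was called, at the same threshold, for 1222 of the 13869 genes, or 8.81%. It was higher in the genomic line for 494 (3.56%) and lower for 728 (5.25%), and the median over all genes was 0.03. Leaving out control DM3 replicate 2 lowered the count to 784. Same-numbered libraries of the 2 lines deviated together within a medium, and the numbers were taken as a pairing, which the labels do not state. With a block for that pairing the count rose to 3474 (25.0% of genes), which held all 1222, with 1827 higher and 1647 lower. Counts for the gene lists below are given without this pairing block and, where they differ, with it. They stand beside 8.81% of all genes called without the block and 25.0% with it. More calls in a list with the block are therefore common. Lists of interferon genes held 148 of the 1222 calls. The 1074 calls outside those lists (7.87% of 13650 tested genes, 493 higher and 581 lower) are the subject of what follows. In bulk RNA, fewer cells that respond and a smaller response per cell cannot be told apart for any gene.

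These 1074 genes fall into 5 classes by what each line did between GM and DM3. A response was gained in 344 genes, where the genomic line changed and control had no called change: 220 gained a rise and 124 a fall. It was lost in 419 genes, where control changed and the genomic line had no called change: 287 lost a rise and 132 a fall. It turned in 92 genes, where both lines changed in opposite directions. Among these, 37 rose in the genomic line and fell in control, and 55 did the reverse. Both lines moved the same way in the rest, more strongly in the genomic line in 87 genes and more weakly in 132. A lost or gained class rests on 1 response passing the threshold and the other missing it, which does not show the missing response to be 0. The genomic response was called different from the spliced one in 389 of the 1074 genes, beside 10.5% of all tested genes. That comparison shares its genomic libraries with the interaction.

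The lines differed in DM3 and not in GM for 602 of the 1074 genes, in GM and not in DM3 for 161, and in both media for 300. In 54 of the 300 the difference between the lines changed sign with the medium. Of all tested genes, 26.8% differed in GM and 40.3% in DM3, whatever they did in the other medium. The interaction equals the line difference in DM3 minus that in GM. Its calls therefore favour differences confined to 1 medium, and these counts are descriptions. The scale bears on genes that 1 line hardly expresses. In 179 of the 1074 genes the control line averaged under 1 FPM in both media, and in 184 the genomic line did. The added 1 in log2(FPM + 1) then holds the response of that line near 0. In edgeR's test of the recovered read counts, which has no such term, 579 of the 753 other genes were called with the same sign, but only 38 and 47 of these 2 sets. Over all genes edgeR called 5.60% and DESeq2 9.19%. All 92 turned genes were called there with the same sign.

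**Figure D1:**
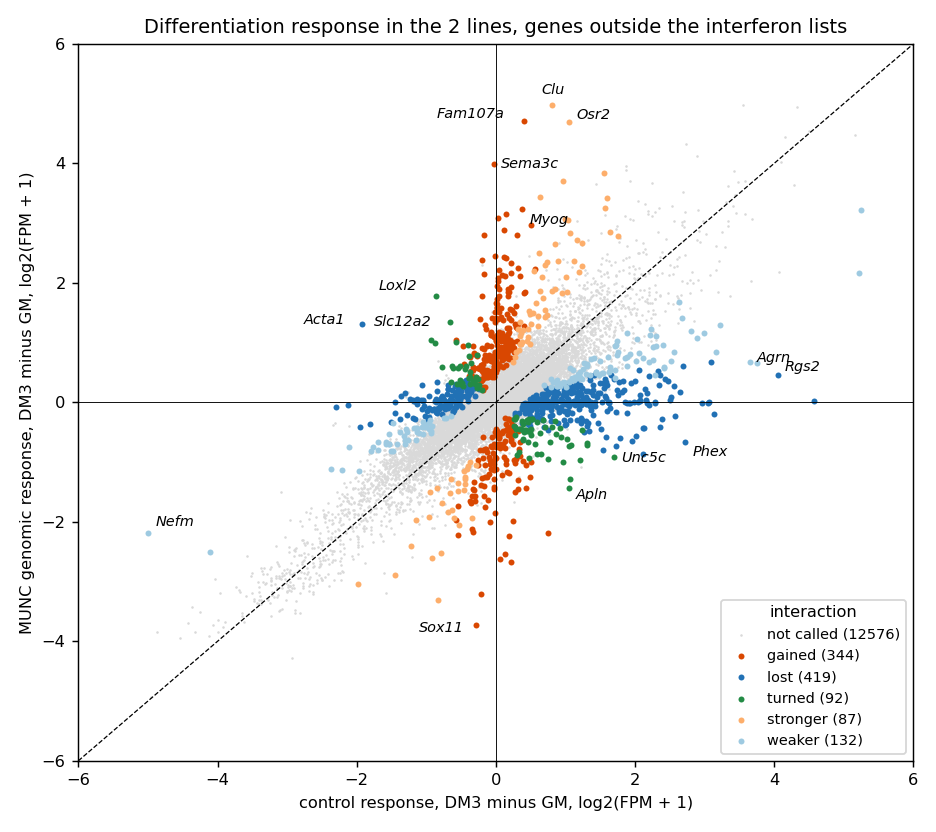
Response of each tested gene outside the interferon lists in control cells (x axis) and in MUNC genomic cells (y axis), both DM3 minus GM on log2(FPM + 1), with called interactions coloured by class. Gained genes lie along the vertical axis, lost genes along the horizontal axis, and the 92 turned genes in the upper left and lower right corners. The dashed line marks equal responses.

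The muscle genes came first. Among 18 tested transcription factors of the muscle lineage, 2 had a higher and 2 a lower interaction, beside 3.56% and 5.25% of all genes, with a median of -0.03 (with the pairing block 4 higher and 3 lower). Myog, the regulator that marks the start of terminal differentiation (ENSMUSG00000026459, chromosome 1, 134289989 to 134292548), stood at 0.0683, 0.0177 and 0 FPM in control GM against 0.192, 0.434 and 0.405 FPM in control DM3, and 0.143, 0.101 and 0 FPM in genomic GM against 7.89, 14.7 and 6.5 FPM in genomic DM3. Of the 12 libraries only those of genomic DM3 passed 1 FPM, and the interaction was 2.85 (SE 0.64, adjusted p = 0.00955). Myod1 (ENSMUSG00000009471, chromosome 7, 46376474 to 46379099) was at 1.66, 2.87 and 7 FPM in genomic GM and at 18.1, 22.5 and 14.5 FPM in genomic DM3, with the 2 groups apart. Its interaction of 2.04 (SE 0.58, adjusted p = 0.0358) was lost on leaving out any of 10 of the 12 libraries, all but genomic GM replicate 3 or genomic DM3 replicate 3 (p up to 0.101). In the spliced line Myog stood at 9.72, 12.6 and 5.48 FPM in spliced GM and 226, 52.6 and 41 FPM in spliced DM3, and the difference between the genomic and spliced responses, 0.21 (adjusted p = 0.884), did not pass. On recovered reads neither gene passed in edgeR (Myog 3.23, adjusted p = 0.493, Myod1 0.50, adjusted p = 0.932) or DESeq2 (adjusted p = 0.106 and 0.908). Eya1 and Eya4, cofactors of homeobox factors of the muscle lineage, had a called rise in control alone. Eya1 went from 34.9 ± 3.52 to 98 ± 14.4 FPM in control and from 29.2 ± 3.69 to 31.1 ± 1.12 FPM in genomic cells (SD, n = 3 for all such values), an interaction of -1.36 (SE 0.22, adjusted p = 0.000729). Eya4 moved from 29.3 ± 3.82 to 62.8 ± 7.49 FPM in control and from 89.7 ± 19.4 to 107 ± 10.3 FPM in genomic cells, an interaction of -0.81 (SE 0.22, adjusted p = 0.0283) that was lost on leaving out any of 7 of the 12 libraries, all but control GM replicate 2, control DM3 replicates 1 or 3, genomic GM replicate 3 or genomic DM3 replicate 2 (p up to 0.0865).

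Of 20 tested inhibitors of the MyoD family, none was higher and 4 were lower, or 20.0% beside 8.81% of all genes. The median was -0.17 against 0.03 for all genes. With the pairing block 2 were higher and 5 lower, beside 25.0% of all genes. Bhlhe41, a repressor that also belongs to the circadian list, rose in both lines and less in genomic cells, from 20.6 ± 2.76 to 61.8 ± 9.41 FPM in control and from 46.9 ± 6.75 to 65.7 ± 2 FPM in genomic cells, an interaction of -1.05 (SE 0.21, adjusted p = 0.00525). Snai1, a zinc finger repressor, was turned: 15.2, 13.1 and 17.1 FPM in control GM against 20.2, 22.4 and 23 FPM in control DM3, and 21.8, 19.4 and 21.9 FPM in genomic GM against 17.2, 15.5 and 13.2 FPM in genomic DM3. Its control libraries rose without overlap and its genomic libraries fell without overlap (-0.95, adjusted p = 0.0164). Zeb2 (-0.57, adjusted p = 0.0239), another repressor of this kind, and Msx2 (-0.56, adjusted p = 0.0123), a homeobox repressor at most 1.09 FPM in these libraries, completed the 4. The call of Zeb2 was lost without control GM replicates 1 or 3, control DM3 replicate 2, genomic GM replicates 1 or 2 or genomic DM3 replicate 3 (p up to 0.0688), and Msx2 did not pass in edgeR (0.34). The inhibitors Id1 and Id3 gave interactions of 1.53 and 0.76 that did not pass (adjusted p = 0.23 and 0.509). With the block for pairing within a medium Id1 passed (adjusted p = 0.00709).

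Sarcomere genes encode the contractile filaments and the proteins that build them. Of 51 tested, 9 were higher, none was lower and 42 did not pass. Calls made up 17.6% of these, beside 8.81% of all genes. With the pairing block 12 were higher and 1 lower, beside 25.0% of all genes. The list's median interaction was 0.27, from a median response of 0.18 in control and 0.95 in genomic cells. In control, 19 of the 51 rose and 5 fell, and in genomic cells 29 rose and 3 fell. The summed level of the whole list was 3734 to 4513 FPM in the 9 libraries of the other 3 groups and 5702 to 7014 FPM in the 3 genomic DM3 libraries. Such a sum is weighted toward abundant genes, among them Tpm1, described below. By itself it does not show a rise across the list. The filter admitted genes that were present in a single group, and another 23 genes of the list did not pass it, so the counts describe the tested genes only. In edgeR 4 were higher (Myh3, Acta1, Tpm1 and Myl4) and 2 lower, Hspb7 and Nrap, which limma did not call.

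Myh3, embryonic myosin heavy chain (ENSMUSG00000020908, chromosome 11, 67078300 to 67102291), stood at 0.358, 0.354 and 0.215 FPM in control GM against 0.461, 0.375 and 0.497 FPM in control DM3, and 0.301, 0.152 and 0.063 FPM in genomic GM against 7.66, 13 and 8.27 FPM in genomic DM3. All 3 genomic DM3 libraries lay above the other 9, and the interaction was 3.01 (SE 0.68, adjusted p = 0.0105). Acta1, skeletal alpha-actin (ENSMUSG00000031972, chromosome 8, 123891769 to 123894751), was at 19.7, 11.2 and 31 FPM in control GM against 5.68, 3.95 and 3.43 FPM in control DM3, and 5.91, 6.55 and 12.1 FPM in genomic GM against 19.3, 30.7 and 15.5 FPM in genomic DM3. It fell in control, and its genomic DM3 libraries lay above genomic GM, though that response of 1.32 (adjusted p = 0.0721) did not pass. Its interaction of 3.25 (SE 0.83, adjusted p = 0.0218) was lost without control GM replicate 3, control DM3 replicates 2 or 3, genomic GM replicate 1 or genomic DM3 replicate 2 (p up to 0.0612). Reads of Acta1 can be shared with other near-identical actins. Myl1, a fast myosin light chain (2.28), and Mybph, a myosin-binding protein (2.00), were at most 0.217 FPM in the other 3 groups. In genomic DM3 they reached 3.8, 7.16 and 3.42 FPM and 2.14, 5.51 and 2.4 FPM. In edgeR, Myl1 (0.899) and Mybph (0.335) did not pass.

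The other 5 called sarcomere genes are named after their values were seen. Tpm1, a tropomyosin, stood at 1314, 1303 and 1305 FPM in control GM against 1136, 1350 and 1177 FPM in control DM3, and 1368, 1512 and 1218 FPM in genomic GM against 2828, 2251 and 2065 FPM in genomic DM3. Control libraries did not separate, the genomic DM3 libraries lay above all others, and the interaction was 0.90 (SE 0.22, adjusted p = 0.017). Klhl40 (1.77), which stabilises thin filaments, Myl4 (1.61), Unc45b (1.37), a myosin chaperone, and Mybpc2 (1.23) were at most 6.87 FPM. The call of Unc45b was lost whichever of the 12 libraries was left out (p up to 0.089), and Klhl40, Unc45b and Mybpc2 did not pass in edgeR (adjusted p = 0.977, 0.262 and 0.349). Genomic and spliced responses differed in 10.5% of all genes, with the genomic response higher in 5.17% and lower in 5.36%. That of Tpm1 was larger in the genomic line, by 0.95 (adjusted p = 0.0112). That of Mybph was lower, by -1.88 (adjusted p = 0.0153), with 0.252, 0.532 and 0.866 FPM in spliced GM and 45.1, 13.6 and 17.5 FPM in spliced DM3. On recovered reads, where genomic GM had no read, it had the opposite sign, called in DESeq2 (4.52, adjusted p = 0.0167) and not in edgeR (5.04, adjusted p = 0.133), so its direction depends on the scale. Myh3 stood at 1.44, 2.48 and 4.63 FPM in spliced GM and 177, 24.2 and 37.9 FPM in spliced DM3, Acta1 at 249.9, 35.4 and 72.9 FPM and Myl1 at 32.4, 5.58 and 12 FPM in spliced DM3. For these 3 the difference from the spliced response did not pass: -0.79 (adjusted p = 0.512), -1.91 (adjusted p = 0.161) and -0.70 (adjusted p = 0.463).

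**Figure D2:**
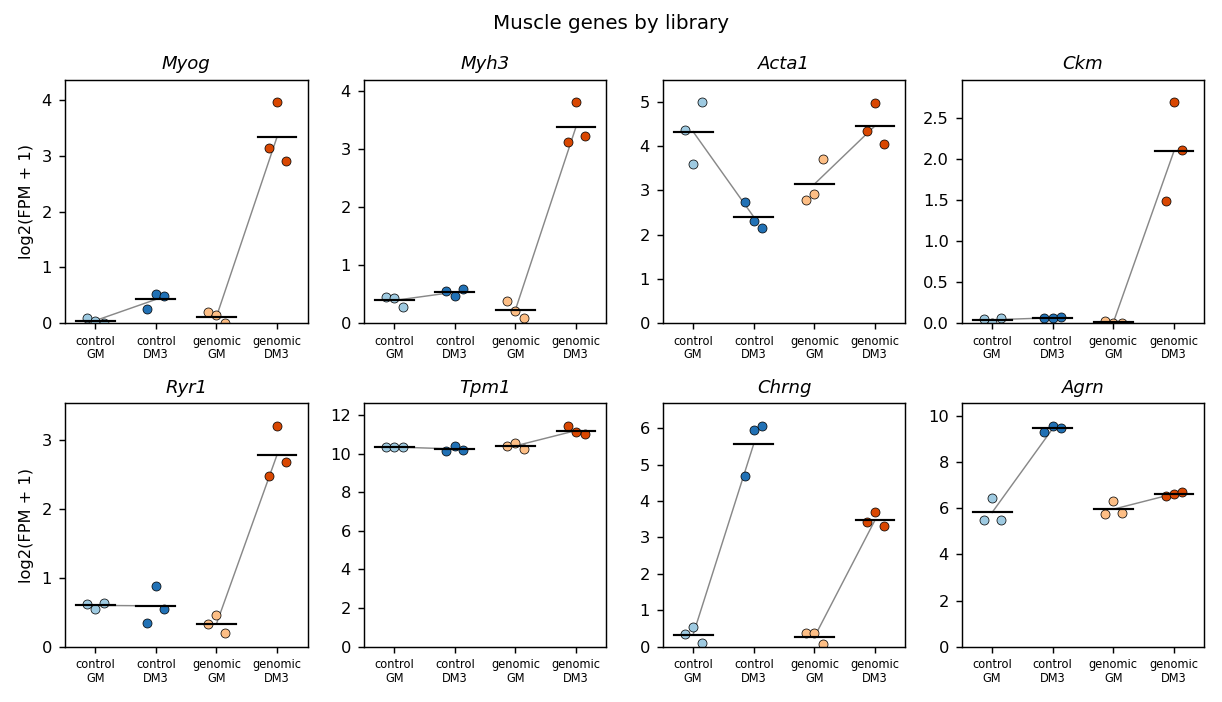
Muscle genes in each of the 12 libraries, as log2(FPM + 1) on the y axis, with a bar at the mean of each group of 3 and a line joining GM and DM3 of a line. Of the 4 groups shown, Myog, Myh3, Ckm and Ryr1 are highest in genomic DM3, the Acta1 libraries move in opposite directions in the 2 lines, and Chrng and Agrn rise more in control.

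Promoter sequences are shown for 3 of the sarcomere genes and for Lmod1, a leiomodin described further on, because their interactions were higher and they hold the E-box CAGCTG, the core that MyoD family factors bind. Each is the 250 bases before the RefSeq start on GRCm38.p6, read 5′ to 3′ on the strand of the gene, with CAGCTG and, in Acta1, the CArG box in capitals.
Acta1, chr8:123894776-123895025, minus strand: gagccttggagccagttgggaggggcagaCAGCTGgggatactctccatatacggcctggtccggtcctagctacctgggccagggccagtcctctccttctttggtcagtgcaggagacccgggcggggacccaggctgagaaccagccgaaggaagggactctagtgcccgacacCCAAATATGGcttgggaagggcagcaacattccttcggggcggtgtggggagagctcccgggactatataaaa
Mybph, chr1:134193198-134193447, plus strand: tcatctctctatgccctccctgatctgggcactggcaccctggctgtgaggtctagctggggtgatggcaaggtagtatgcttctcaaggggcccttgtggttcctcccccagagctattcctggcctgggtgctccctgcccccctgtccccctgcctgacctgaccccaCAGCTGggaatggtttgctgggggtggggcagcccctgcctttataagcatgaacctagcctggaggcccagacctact
Klhl40, chr9:121777357-121777606, plus strand: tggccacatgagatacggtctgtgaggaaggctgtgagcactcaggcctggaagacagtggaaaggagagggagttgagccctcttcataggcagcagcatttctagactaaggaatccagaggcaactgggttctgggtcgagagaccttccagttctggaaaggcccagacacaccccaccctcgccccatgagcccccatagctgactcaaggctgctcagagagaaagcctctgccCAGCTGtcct
Lmod1, chr1:135324563-135324812, plus strand: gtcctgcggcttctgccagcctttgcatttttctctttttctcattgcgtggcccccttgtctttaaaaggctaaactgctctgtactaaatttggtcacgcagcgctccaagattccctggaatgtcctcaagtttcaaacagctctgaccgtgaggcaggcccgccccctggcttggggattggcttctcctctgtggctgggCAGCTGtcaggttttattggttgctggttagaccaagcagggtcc
The E-box begins 221 bases before the start in Acta1, 79 in Mybph, 10 in Klhl40 and 45 in Lmod1. CAGCTG reads the same on both strands and does not overlap the CArG box of Acta1. It was present in 4 of the 9 called sarcomere genes (Acta1, Myl1, Mybph and Klhl40), in 31.1% of the 74 windows of the whole list, and in 13.0% of all 32851 RefSeq windows of this length. The CArG box, the site of serum response factor, begins 73 bases before the Acta1 start and occurs in 1.47% of all windows. These matches are descriptions of the letters in the windows.

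Genes of excitation, calcium release and the neuromuscular junction split. Of 41 tested, 6 were higher and 3 lower, with a median of -0.02 (with the pairing block 7 higher and 4 lower). Ryr1, the calcium release channel of skeletal muscle, stood at 0.529, 0.46 and 0.553 FPM in control GM against 0.269, 0.848 and 0.461 FPM in control DM3, and 0.258, 0.371 and 0.147 FPM in genomic GM against 4.55, 8.25 and 5.39 FPM in genomic DM3. The rise was called in genomic cells alone, with an interaction of 2.46 (SE 0.55, adjusted p = 0.00953). Ckm, muscle creatine kinase, reached 1.8, 5.47 and 3.3 FPM in genomic DM3 and was at most 0.0553 FPM in the other 3 groups (2.06, adjusted p = 0.00847). In spliced DM3, Ryr1 stood at 48.9, 10.1 and 11.3 FPM and Ckm at 5.05, 0.732 and 2.15 FPM, and neither genomic response was called different from the spliced one (0.11 (adjusted p = 0.931) and 0.49 (adjusted p = 0.55)). Agrn, the nerve and muscle signal that clusters acetylcholine receptors (ENSMUSG00000041936, chromosome 4, 156165290 to 156197488), went the other way: 44.7, 86.9 and 44 FPM in control GM against 642, 772 and 712 FPM in control DM3, and 53.8, 78.6 and 54.8 FPM in genomic GM against 92.4, 98.2 and 105 FPM in genomic DM3. Control DM3 lay above every other library, and the interaction was -2.98 (SE 0.32, adjusted p = 2.26e-05). The spliced line stood at 44, 60 and 56.8 FPM in spliced GM and 350.2, 495 and 524 FPM in spliced DM3, and the genomic response was below the spliced one, by -2.39 (adjusted p = 0.000185).

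Chrng, the fetal receptor subunit, rose in both lines, from 0.264 ± 0.183 to 50.6 ± 22.4 FPM in control and from 0.205 ± 0.141 to 10.2 ± 1.64 FPM in genomic cells, and its lower interaction (-2.03, adjusted p = 0.0478) was lost on leaving out any of 11 of the 12 libraries, all but control DM3 replicate 1 (p up to 0.125), and it did not pass in edgeR (0.303). Chrna1, the alpha subunit, rose in both lines and gave -0.31 (adjusted p = 0.691). The other 5 calls are named after their values were seen. Musk, the kinase through which agrin acts, was 15.9, 19.7 and 12.2 FPM in genomic GM and 37, 52.2 and 54 FPM in genomic DM3, against at most 0.608 FPM in control (1.05, adjusted p = 0.0104). With control that low, edgeR gave the opposite sign without a call (-1.33, adjusted p = 0.132). Clcn1, the muscle chloride channel, was turned (-1.17, adjusted p = 0.000454): it rose in control to 5.43, 5.09 and 5.21 FPM and fell in genomic cells to 1.15, 1.42 and 1.15 FPM. Etv5 (1.08), an ETS transcription factor, Stim1 (0.56), the calcium sensor of the reticulum, and Ryr3 (0.53, at most 0.613 FPM) were higher. The call of Stim1 was lost without control GM replicates 1 or 3, control DM3 replicate 2, genomic GM replicates 1 or 3 or genomic DM3 replicate 3 (p up to 0.077).

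Of 34 tested genes of fusion and membrane repair, 2 were higher and 1 lower, or 8.82% beside 8.81% of all genes. With the pairing block 8 were higher and 3 lower, beside 25.0% of all genes. The file's Gm7325, known as myomixer, was at most 0.138 FPM in the other 3 groups and at 1.78, 3.19 and 1.03 FPM in genomic DM3 (1.47, adjusted p = 0.0292). The spliced line stood at 0.353, 1.1 and 0.649 FPM in spliced GM and 12, 5.65 and 3.94 FPM in spliced DM3, a difference in response of -0.65 (adjusted p = 0.325) that did not pass in limma and had the opposite sign on recovered reads (DESeq2 4.98, adjusted p = 0.0111, edgeR 4.63, adjusted p = 0.0598). Its call was lost on leaving out any of 8 of the 12 libraries, all but control GM replicate 2, control DM3 replicate 1, genomic GM replicate 3 or genomic DM3 replicate 3 (p up to 0.0814), and it did not pass in edgeR (0.097). Tmem8c, or myomaker, reached 0.693, 2.17 and 1.41 FPM and did not pass (1.22, adjusted p = 0.21). Cdh15, the M-cadherin of myoblasts, rose in both lines, from 46.3 ± 2.26 to 76.4 ± 21.6 FPM in control and from 22.9 ± 5.81 to 99.9 ± 17 FPM in genomic cells, and more in genomic cells (1.43, adjusted p = 0.0108). Nfatc2 fell from 4.54, 3.06 and 4.24 to 0.0989, 0.467 and 0.293 FPM in genomic cells. In control it was at most 0.461 FPM and also fell without overlap (-0.34, adjusted p = 0.0443). The interaction was -1.60 (adjusted p = 8.44e-05), with no call in edgeR (0.892).

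Among called genes outside the interferon lists with a group mean of at least 5 FPM, the 4 highest interactions were those of Fam107a, Clu, Sema3c and Osr2, ahead of Acta1. Fam107a, an actin-associated protein (ENSMUSG00000021750, chromosome 14, 8296274 to 8318023), stood at 0.0171, 0.0354 and 0.0922 FPM in control GM against 0.25, 0.454 and 0.461 FPM in control DM3, and 0.229, 0.439 and 0 FPM in genomic GM against 23.4, 29.1 and 41.9 FPM in genomic DM3. The genomic DM3 libraries lay above every other library, and the interaction was 4.31 (SE 0.32, adjusted p = 6.21e-07). Clu, the secreted chaperone clusterin (ENSMUSG00000022037, chromosome 14, 65968483 to 65981547), was at 0.324, 0.195 and 0.0461 FPM in control GM against 1.23, 0.907 and 1.1 FPM in control DM3, and 1.32, 1.32 and 0.735 FPM in genomic GM against 43.7, 98.1 and 65.1 FPM in genomic DM3. Both lines rose, control to at most 1.23 FPM, and the interaction was 4.17 (SE 0.47, adjusted p = 3.44e-05). Osr2, a zinc finger transcription factor of skeletal development (ENSMUSG00000022330, chromosome 15, 35296098 to 35303305), was at 0.29, 0.0885 and 0.123 FPM in control GM against 1.25, 1.26 and 1.75 FPM in control DM3, and 0.387, 0.962 and 0.294 FPM in genomic GM against 42.2, 37.6 and 35.1 FPM in genomic DM3. It too rose in both lines, with an interaction of 3.64 (SE 0.21, adjusted p = 6.01e-08). The genomic response exceeded the spliced one by 3.71 (adjusted p = 2.48e-06) in Fam107a, 4.11 (adjusted p = 3.72e-05) in Clu and 4.76 (adjusted p = 1.79e-09) in Osr2. In edgeR Fam107a missed the threshold (4.18, adjusted p = 0.103), while Clu and Osr2 passed (adjusted p = 0.0354 and 0.00673). In the authors' deposited table the genomic line against control gave a log2 change for Osr2 of 1.76 in GM (adjusted p = 0.0605) and 4.77 in DM3 (adjusted p = 5.59e-158).

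Sema3c, a secreted semaphorin (ENSMUSG00000028780, chromosome 5, 17574281 to 17730268), stood at 0.41, 0.991 and 0.154 FPM in control GM against 0.192, 0.533 and 0.663 FPM in control DM3, and 17.4, 39.9 and 7.67 FPM in genomic GM against 337, 324 and 234 FPM in genomic DM3. Control libraries of the 2 media overlapped, genomic libraries were already higher in GM and higher again in DM3, and the interaction was 4.01 (SE 0.63, adjusted p = 0.000668). Spry1, a feedback inhibitor of FGF and Ras signalling, was at most 0.0789 FPM in control, 4.05, 5.2 and 1.6 FPM in genomic GM and 44, 29.7 and 35.1 FPM in genomic DM3 (3.06, adjusted p = 0.000285). With control near 0, edgeR did not call it (0.879). The spliced line stood at 5.15, 11.2 and 5.14 FPM in spliced GM and 37.5, 55.5 and 71.3 FPM in spliced DM3, and the responses were not called different (0.28 (adjusted p = 0.743)). Zim1, an imprinted zinc finger gene, reached 16.1, 15.9 and 14.5 FPM in genomic DM3 against at most 2.08 FPM in the other 3 groups (2.97, adjusted p = 0.00122). In spliced DM3 it was at 24.1, 30 and 53.1 FPM, and the responses of these lines were not called different (0.46 (adjusted p = 0.624)). BC034090 reached 22.5, 20.1 and 20.4 FPM in genomic DM3, against at most 1.71 FPM in the other 3 groups (2.81, adjusted p = 2.44e-05). The spliced line had it in both media, at 8.2, 12.5 and 7.29 FPM in spliced GM and 15.7, 15 and 12.5 FPM in spliced DM3, and the genomic response exceeded the spliced one by 2.83 (adjusted p = 2.25e-05). It missed the threshold in edgeR (0.0631). Lmod1, a leiomodin that nucleates actin and is best known from smooth muscle, stood at 2.1, 1.19 and 1.14 FPM in control GM against 1.57, 1.74 and 1.6 FPM in control DM3, and 2.42, 3.43 and 1.24 FPM in genomic GM against 31.5, 22.4 and 16.9 FPM in genomic DM3. Only genomic DM3 was high (2.77 (SE 0.41, adjusted p = 0.000407)), and the genomic response exceeded the spliced one by 2.66 (adjusted p = 0.000607). It was 1 of 2 called among 42 smooth muscle genes (with the pairing block 12 higher and 5 lower). The other was Fblim1 (-0.75, adjusted p = 0.0267), lost on leaving out any of 7 of the 12 libraries, all but control GM replicates 2 or 3, control DM3 replicate 1, genomic GM replicate 3 or genomic DM3 replicate 1 (p up to 0.0741). Acta2 (0.70) and Tagln (1.96), the usual markers of that list, did not pass (adjusted p = 0.231 and 0.0688), and with the block for pairing within a medium both passed (adjusted p = 0.037 and 9.07e-05).

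**Figure D3:**
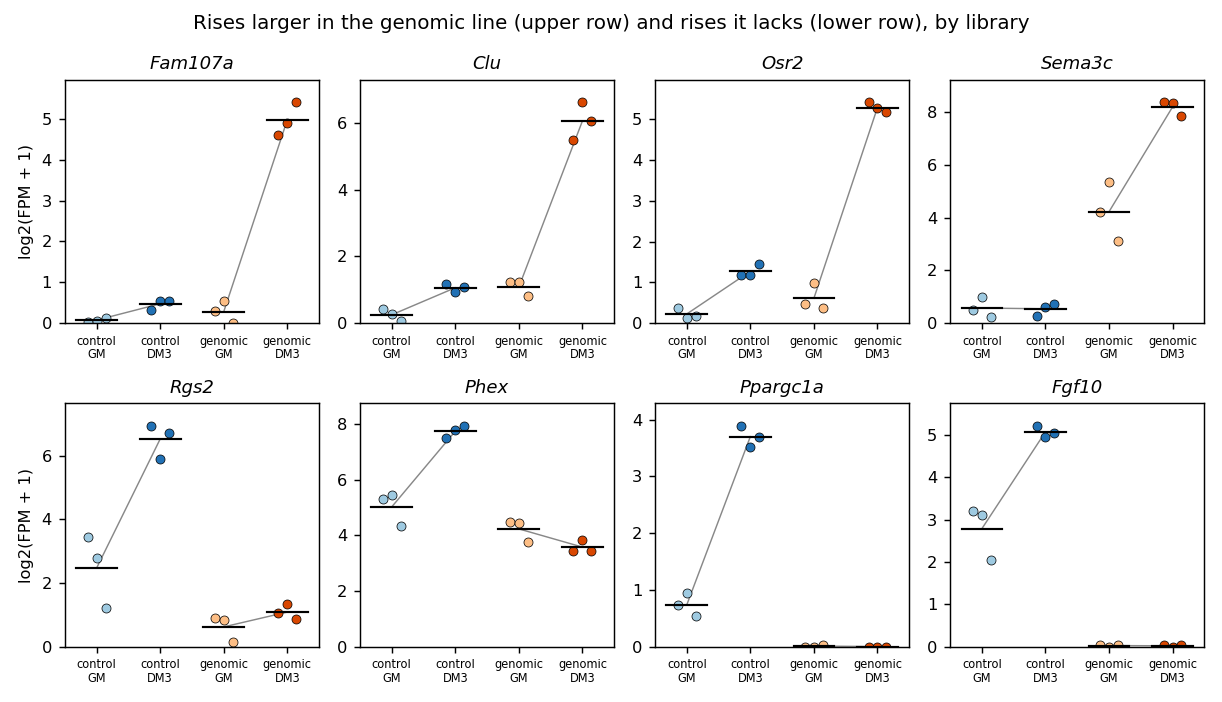
Genes with the largest differences in rise, by library, as log2(FPM + 1) on the y axis, with group means as bars. In the upper row genomic DM3 is high and control stays low. In the lower row control rises and the genomic line does not, with Ppargc1a and Fgf10 near 0 in all 6 genomic libraries.

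Among 43 tested genes of secreted and membrane proteases and their inhibitors, 7 were higher and none lower, with a median of 0.06. Calls made up 16.3% of the list, beside 8.81% of all genes (25.0% of all genes with the pairing block). Calls lay on both sides in other fits (with the pairing block 11 higher and 7 lower), and in edgeR numbered 3 higher and 1 lower. Adam19, a membrane metalloprotease, stood at 13.7, 22.9 and 12.4 FPM in control GM against 31.9, 27.7 and 39 FPM in control DM3, and 34.1, 67.9 and 27.6 FPM in genomic GM against 329, 329 and 379 FPM in genomic DM3. Both lines rose without overlap, the genomic line more, and the interaction was 2.08 (SE 0.40, adjusted p = 0.00322). Adamts17, a secreted metalloprotease, was at most 0.743 FPM in the other 3 groups and at 9.48, 7.16 and 8.04 FPM in genomic DM3 (2.48, adjusted p = 0.00319). It stood at 6.7, 17.2 and 24 FPM in spliced DM3, and the 2 responses were not called different (-0.75 (adjusted p = 0.348)). Mmp15, a membrane-type matrix metalloprotease, was 1.73, 2.33 and 1.6 FPM in genomic GM and 11.7, 12.8 and 11.3 FPM in genomic DM3 (1.95, adjusted p = 0.000242). Mmp9, a gelatinase, rose from 2.72, 5.47 and 0.609 to 12, 7.47 and 8.49 FPM in genomic cells and was at most 0.0592 FPM in control (1.57, adjusted p = 0.0364). Adamts17, Mmp15 and Mmp9 did not pass in edgeR (adjusted p = 0.705, 0.102 and 0.786), and the call of Mmp9 was lost on leaving out any of 9 of the 12 libraries, all but genomic GM replicates 2 or 3 or genomic DM3 replicate 2 (p up to 0.0983). The response of Adam19 exceeded the spliced response by 2.84 (adjusted p = 0.000254).

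The other 3 of the 7 are named after their values were seen. Plat, tissue plasminogen activator, went from 22.4 ± 3.28 to 15.8 ± 1.13 FPM in control and from 23.6 ± 7.35 to 45.1 ± 4.92 FPM in genomic cells, with a rise called in genomic cells alone (1.41, adjusted p = 0.0128). Mmp13, a collagenase, was at 0.851, 2.67 and 2.77 FPM in genomic DM3 and at most 0.276 FPM in the other 3 groups (1.31, adjusted p = 0.00408, edgeR adjusted p = 0.0724). Timp2, an inhibitor of these enzymes, went from 534 ± 78.1 to 590.2 ± 7.71 FPM in control and from 535 ± 41.9 to 937 ± 21.6 FPM in genomic cells (0.65, adjusted p = 0.0362). Its call was lost on leaving out any of 10 of the 12 libraries, all but control GM replicate 2 or genomic GM replicate 3 (p up to 0.0961). Mmp2 rose in both lines and gave -1.13 (adjusted p = 0.0514), a lower value that passed in edgeR (0.0433) and with the pairing block (0.00841). Timp1 fell in both lines and did not pass (0.42, adjusted p = 0.513).

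Matrix genes moved in both directions. Of 64 tested genes of matrix assembly, 6 were higher and 5 lower (median -0.05), and of 29 collagens 3 and 2 (median 0.09). Calls made up 17.2% of each list, beside 8.81% of all genes (25.0% of all genes with the pairing block). More were called in the matrix list (with the pairing block 12 higher and 14 lower) and among the collagens (with the pairing block 5 higher and 3 lower). Loxl2, an enzyme that crosslinks collagen (ENSMUSG00000034205, chromosome 14, 69609068 to 69695834), stood at 10.1, 8.04 and 5.24 FPM in control GM against 5.22, 2.05 and 4.53 FPM in control DM3, and 249, 381 and 127 FPM in genomic GM against 791, 767 and 826 FPM in genomic DM3. Control fell without overlap and genomic cells, already far higher in GM, rose without overlap, an interaction of 2.64 (SE 0.47, adjusted p = 0.00189). The spliced line stood at 4.67, 4.12 and 2.58 FPM in spliced GM and 1.12, 0.697 and 0.795 FPM in spliced DM3, so that the genomic response exceeded the spliced one by 3.12 (adjusted p = 0.000492). Smoc2, a calcium-binding matrix protein, fell in genomic cells from 98.2, 48 and 98.2 to 8.45, 7.28 and 6.89 FPM. In control it was at most 0.231 FPM and also fell without overlap. The interaction was -2.99 (adjusted p = 0.000395). With control that low, edgeR gave the opposite sign without a call (0.91, adjusted p = 0.798). Vcan, the proteoglycan versican, was turned: 135, 173 and 146 FPM in control GM against 464, 337 and 335 FPM in control DM3, and 190, 174 and 162 FPM in genomic GM against 85.6, 105 and 133 FPM in genomic DM3. Control rose and genomic cells fell, each without overlap (-2.03, adjusted p = 0.000983). Vcan stood at 227, 232 and 276 FPM in spliced GM and 198, 91.2 and 189 FPM in spliced DM3. Its genomic and spliced responses were not called different (adjusted p = 0.978). Lum, the proteoglycan lumican, rose to 9.44, 10.1 and 6.6 FPM in genomic and 1.46, 0.809 and 1.75 FPM in control DM3 (2.02, adjusted p = 0.029). It did not pass in edgeR (0.436), and the call was lost on leaving out any of 7 of the 12 libraries, all but control GM replicate 2, control DM3 replicates 1 or 3, genomic GM replicate 2 or genomic DM3 replicate 3 (p up to 0.0829). Fn1 (0.16, adjusted p = 0.922) and Lox (-0.25, adjusted p = 0.659), the 2 genes that head the list, did not pass.

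Among the collagens, Col4a6, a chain of basement membrane collagen IV, was at most 0.0553 FPM in control and rose from 20.2, 25.7 and 16.5 to 80.2, 98 and 121 FPM in genomic cells (2.17 (SE 0.22, adjusted p = 1.46e-05)). On recovered reads the interaction was not called in edgeR, which gave the opposite sign (-0.10, adjusted p = 0.913), and the genomic response exceeded the spliced one by 2.13 (adjusted p = 1.6e-05). Col7a1, the collagen of anchoring fibrils, went from 11 ± 2.78 to 9.72 ± 1.87 FPM in control and from 97.3 ± 19.3 to 27.8 ± 1.79 FPM in genomic cells, a fall called in genomic cells alone (-1.60, adjusted p = 0.00147). Col8a1 (0.83, adjusted p = 0.0309), Col9a3 (-0.94, adjusted p = 0.0171) and Col4a1 (0.62, adjusted p = 0.0426), the last named after its values were seen, were called as well. The call of Col8a1 was lost on leaving out any of 8 of the 12 libraries, all but control GM replicate 3, control DM3 replicate 1, genomic GM replicate 2 or genomic DM3 replicate 2 (p up to 0.0825), and Col9a3 did not pass in edgeR (0.0927). The main fibrillar collagens Col1a1 (0.34) and Col3a1 (0.17) did not pass (adjusted p = 0.708 and 0.882). Of 31 tested adhesion and laminin genes only Itgb3, the beta3 integrin, was called (-0.82, adjusted p = 0.0332), and that call was lost on leaving out any of 8 of the 12 libraries, all but control GM replicate 2, control DM3 replicate 1, genomic GM replicate 3 or genomic DM3 replicate 1 (p up to 0.0903). The list held more calls in the blocked fit (with the pairing block 1 higher and 9 lower). Lama2 (-0.10), a laminin chain of the muscle basement membrane, and Itga7 (0.51), an integrin subunit, rose in both lines and did not pass.

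Guidance genes carried 14 calls in 58 tested, 6 higher and 8 lower, or 24.1% beside 8.81% of all genes. With the pairing block 10 were higher and 15 lower, beside 25.0% of all genes. Beside Sema3c, Efnb2, an ephrin ligand, stood at 102, 126 and 122 FPM in control GM against 198, 239 and 214 FPM in control DM3, and 98.8, 152 and 103 FPM in genomic GM against 620.2, 584 and 596 FPM in genomic DM3. Both lines rose without overlap, the genomic line more (1.47 (SE 0.23, adjusted p = 0.000566)), and the genomic response exceeded the spliced one by 2.51 (adjusted p = 3.61e-06). Nrp1, a receptor of semaphorins and VEGF, rose from 82.2 ± 16.8 to 178 ± 12.3 FPM in control and from 75.6 ± 16.5 to 387 ± 35.2 FPM in genomic cells (1.24, adjusted p = 0.00404). Its relative Nrp2 had a rise called in control alone, from 257 ± 53.2 to 651 ± 26.9 FPM in control and from 377 ± 36.9 to 360.4 ± 28.3 FPM in genomic cells (-1.42, adjusted p = 0.00236). Both are named after their values were seen. Plxna4, a plexin that forms semaphorin receptors, fell in genomic cells from 17.8, 13.2 and 15.9 to 2.53, 3.07 and 2.48 FPM. In control it was at most 0.446 FPM and also fell without overlap. The interaction was -1.84 (adjusted p = 0.000132). On recovered reads it had the opposite sign and no call (0.91, adjusted p = 0.572). The rise of Sema3a was called in control alone, from 99 ± 20.6 to 255 ± 47.5 FPM in control and from 81.2 ± 15.4 to 106 ± 16.8 FPM in genomic cells (-0.98, adjusted p = 0.029), and the interaction was lost on leaving out any of 8 of the 12 libraries, all but control GM replicate 2, control DM3 replicate 1, genomic GM replicate 3 or genomic DM3 replicate 2 (p up to 0.0892).

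Of 51 tested genes of FGF and other receptor kinase signalling, 5 were higher and 7 lower, or 23.5% beside 8.81% of all genes. The median was -0.07. With the pairing block 8 were higher and 12 lower, beside 25.0% of all genes. The rise of 3 ligands was called in control alone. Fgf10 stood at 8.18, 7.64 and 3.13 FPM in GM and 36.4, 30 and 32 FPM in DM3 of the control, and at most 0.0286 FPM in the genomic libraries (-2.29 (SE 0.43, adjusted p = 0.00267)). With so few genomic reads, edgeR did not call it (0.494). The genomic and spliced responses of Fgf10 were not called different (adjusted p = 0.441). Hgf, the ligand of the Met receptor, was at 20.1, 20.1 and 12 FPM in control GM against 86.6, 95 and 119 FPM in control DM3, and 19.6, 18.2 and 8.76 FPM in genomic GM against 19.7, 18.7 and 18.6 FPM in genomic DM3. Control rose without overlap and the genomic groups overlapped (-2.13 (SE 0.37, adjusted p = 0.00147)). Vegfc, a lymphatic growth factor named after its values were seen, went from 5.53 ± 1.05 to 15.6 ± 3.11 FPM in control and from 18.6 ± 2.9 to 13.2 ± 2.42 FPM in genomic cells (-1.81, adjusted p = 0.00176). Angptl4, a secreted inhibitor of lipoprotein lipase, had a rise called in genomic cells alone, from 25.2, 34 and 19.2 to 100.2, 175 and 147 FPM (2.59 (SE 0.43, adjusted p = 0.00119)). Pdgfrb, a PDGF receptor also named after its values were seen, had a fall called in genomic cells alone, from 222 ± 36.9 to 274 ± 3.96 FPM in control and from 327 ± 46.2 to 131 ± 3.76 FPM in genomic cells (-1.62, adjusted p = 0.000612). Fgf2 and Spry2 gave 0.16 and 0.16 and did not pass.

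In the Notch list Dll1, a ligand, stood at 0.119, 0.195 and 0 FPM in control GM against 0.922, 1.36 and 1.18 FPM in control DM3, and 0.415, 0.996 and 0.336 FPM in genomic GM against 18.1, 23.5 and 17 FPM in genomic DM3. It rose in both lines and more in genomic cells (2.75 (SE 0.37, adjusted p = 0.000191)), but edgeR, with control GM near 0, did not call it (0.367). Notch1, a receptor, fell in genomic cells from 3.13, 4.69 and 1.43 to 0.989, 1.26 and 0.644 FPM (-1.37, adjusted p = 0.0409), a call lost on leaving out any of 9 of the 12 libraries, all but control GM replicate 2, control DM3 replicate 1 or genomic GM replicate 3 (p up to 0.108). The target Hes1 did not pass (0.46, adjusted p = 0.726), and none of the other 19 of the 22 tested genes did. Calls made up 9.09% of the Notch list, beside 8.81% of all genes. More of this list were called in the blocked fit (with the pairing block 2 higher and 5 lower). In the TGF-beta and BMP list 4 of 48 were called, or 8.33% beside 8.81% of all genes. With the pairing block 11 were higher and 8 lower, beside 25.0% of all genes. Grem1, a secreted BMP antagonist, was at 647, 474 and 651 FPM in control GM against 739.5, 563 and 719 FPM in control DM3, and 90.8, 61.2 and 180.5 FPM in genomic GM against 16.2, 26.2 and 20.4 FPM in genomic DM3. Control had no called change, and the genomic line, lower in GM, fell (-2.42 (SE 0.54, adjusted p = 0.00904)). The genomic response was also below the spliced one, by -2.85 (adjusted p = 0.0029). Smad6, an inhibitory Smad, was turned (-1.26, adjusted p = 0.00378), and Bmpr1b (0.84, adjusted p = 0.0203), a BMP receptor at most 0.184 FPM in control, rose in genomic cells from 9.42, 8.19 and 5.38 to 12.7, 14.7 and 14.8 FPM. The call of Bmpr1b was lost without genomic DM3 replicate 2 (adjusted p = 0.0505) and did not pass in edgeR (0.446). Cilp, a matrix protein at most 1.72 FPM, was called (0.66, adjusted p = 0.0323) but had the opposite sign in edgeR (-2.32, adjusted p = 0.429), and the call was lost on leaving out any of 8 of the 12 libraries, all but control DM3 replicate 2, genomic GM replicates 1 or 2 or genomic DM3 replicate 3 (p up to 0.0896). Of 42 Wnt genes, the transcription factor Lef1 (-1.04, adjusted p = 0.038) had a fall and the ubiquitin ligase Znrf3 (0.55, adjusted p = 0.0458) a rise called in genomic cells alone. The call of Lef1 was lost on leaving out any of 9 of the 12 libraries, all but control GM replicate 2, control DM3 replicate 1 or genomic GM replicate 3 (p up to 0.115). That of Znrf3 was lost on leaving out any of 10 of the 12 libraries, all but control GM replicate 1 or genomic GM replicate 3 (p up to 0.117). More Wnt genes were called in the blocked fit (with the pairing block 3 higher and 6 lower).

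Insulin-like growth factor genes were called in 1 direction: 4 of 20 lower, none higher, at a median of -0.10. Calls made up 20.0% of the list, beside 8.81% of all genes. With the pairing block 1 was higher and 5 lower, beside 25.0% of all genes. Igf2bp2, an RNA-binding protein, rose in both lines, from 1.61 ± 0.605 to 22 ± 1.81 FPM in control and from 15.1 ± 1.13 to 28.1 ± 4.3 FPM in genomic cells (-2.32 (SE 0.39, adjusted p = 0.0013)). Its genomic and spliced responses were not called different (adjusted p = 0.812). Igf1r, the receptor, had a rise called in control alone, from 43.1 ± 6.62 to 90.5 ± 16.4 FPM in control and from 39.9 ± 1.01 to 45.5 ± 1.07 FPM in genomic cells (-0.86, adjusted p = 0.0204), and the interaction was lost without control GM replicates 1 or 3 or control DM3 replicate 3 (p up to 0.0573). Igfbp2, a binding protein, fell in genomic cells from 62.3, 82 and 58 to 24.6, 22.4 and 9.87 FPM and was at most 0.0512 FPM in control (-1.85, adjusted p = 0.00149, edgeR adjusted p = 0.723). Pappa2, a protease that cuts such binding proteins, had a rise called in control alone, to at most 4.07 FPM (-1.76, adjusted p = 0.00267). The ligands Igf1 (-0.24, adjusted p = 0.889) and Igf2 (1.45, adjusted p = 0.196) did not pass. Igf2 was at 3.21, 12.5 and 2.34 FPM in genomic DM3.

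Lost rises made up the largest class. Rgs2, which shuts off G protein signals (ENSMUSG00000026360, chromosome 1, 143999338 to 144004161), stood at 9.77, 5.8 and 1.31 FPM in control GM against 122, 58.7 and 104 FPM in control DM3, and 0.845, 0.776 and 0.105 FPM in genomic GM against 1.07, 1.51 and 0.839 FPM in genomic DM3. Control rose without overlap and the genomic groups overlapped, with an interaction of -3.59 (SE 0.66, adjusted p = 0.00256), and edgeR did not call it (0.0643). Phex, a membrane peptidase of bone cells that governs phosphate (ENSMUSG00000057457, chromosome X, 157162075 to 157415312), was at 38.6, 42.5 and 19.1 FPM in control GM against 180.3, 221 and 247 FPM in control DM3, and 21.5, 20.7 and 12.8 FPM in genomic GM against 9.97, 13.4 and 9.81 FPM in genomic DM3. Control rose in all 3 libraries and the genomic groups overlapped (-3.38 (SE 0.39, adjusted p = 3.78e-05)), while its difference from the spliced response, -0.31 (adjusted p = 0.675), did not pass. Ppargc1a, the coactivator PGC-1alpha that drives mitochondrial genes (ENSMUSG00000029167, chromosome 5, 51454250 to 51567726), was at 0.666, 0.92 and 0.446 FPM in GM and 13.9, 10.5 and 11.9 FPM in DM3 of the control. It had at most 1 read in any genomic library, below the 3 reads that a count of 0 allows, and the interaction was -2.98 (SE 0.16, adjusted p = 2.01e-08). In the spliced line it was also low, 0.0505, 0.0367 and 0.0721 FPM in spliced GM and 0.228, 0.139 and 0.127 FPM in spliced DM3, and the difference between the genomic and spliced responses, -0.15 (adjusted p = 0.587), did not pass. With almost no genomic reads, edgeR did not call it (0.138).

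The mesenchymal list, genes of bone, cartilage and fat, held 7 lower and 1 higher of 33 tested, or 24.2% beside 8.81% of all genes. The median was -0.13. With the pairing block 3 were higher and 9 lower, beside 25.0% of all genes. Beside Phex, Enpp1, the enzyme that makes pyrophosphate, had a rise called in control alone, from 22.4 ± 2.16 to 114 ± 12.7 FPM in control and from 64.2 ± 8.78 to 64 ± 7.19 FPM in genomic cells (-2.29, adjusted p = 0.00155), and so did Plin4, a lipid droplet coat protein, from 4.68 ± 1.91 to 20.5 ± 4.32 FPM in control and from 11.9 ± 4.85 to 6.97 ± 2.16 FPM in genomic cells (-2.61, adjusted p = 0.00378). Lpl, lipoprotein lipase, was at most 0.096 FPM in control and fell from 17.3, 14.6 and 12.6 to 7.95, 5.24 and 4.53 FPM in genomic cells (-1.30, adjusted p = 0.000897). Runx2, the bone regulator, had a fall called in genomic cells alone, from 86 ± 13.7 to 92.5 ± 17.4 FPM in control and from 82.8 ± 6.58 to 50.6 ± 4.96 FPM in genomic cells (-0.80, adjusted p = 0.0249), and the interaction was lost without control GM replicate 1, control DM3 replicates 2 or 3, genomic GM replicate 3 or genomic DM3 replicates 1 or 2 (p up to 0.0712). Pparg, the fat regulator, fell in both lines and did not pass (-0.45, adjusted p = 0.405).

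Of 39 tested chemokines, cytokines and their receptors, 3 were higher and 3 lower, or 15.4% beside 8.81% of all genes. With the pairing block 3 were higher and 7 lower, beside 25.0% of all genes. Ccl8, a chemokine that draws monocytes, stood at 0.632, 0.283 and 0.231 FPM in control GM against 15.9, 19 and 17.9 FPM in control DM3, and 1.66, 0.557 and 0.966 FPM in genomic GM against 2.61, 1.64 and 2.32 FPM in genomic DM3. It rose in both lines, more in control (-3.11 (SE 0.32, adjusted p = 1.62e-05)). Ccl7 was at 70.2, 24.2 and 30.2 FPM in control GM against 108, 53.5 and 44.3 FPM in control DM3, and 182, 60.8 and 163 FPM in genomic GM against 35.2, 23.4 and 21.2 FPM in genomic DM3. Genomic libraries fell without overlap and control libraries overlapped (-2.94 (SE 0.67, adjusted p = 0.0111)). The related Ccl2 did not pass (-1.45, adjusted p = 0.173) but did with the pairing block (0.00177). Cxcl1, a neutrophil chemokine, had a rise called in genomic cells alone, from 15 ± 6.77 to 16 ± 6.85 FPM in control and from 14 ± 7.59 to 59.4 ± 16.6 FPM in genomic cells (2.00, adjusted p = 0.0367), and Cxcr4, the receptor of Cxcl12, rose there from 1.29, 1.55 and 3.4 to 8.05, 10.6 and 8.74 FPM (1.60, adjusted p = 0.0316). The call of Cxcl1 was lost on leaving out any of 7 of the 12 libraries, all but control GM replicate 3, control DM3 replicate 1, genomic GM replicates 1 or 2 or genomic DM3 replicate 2 (p up to 0.0996). That of Cxcr4 was lost on leaving out any of 10 of the 12 libraries, all but control GM replicate 2 or genomic GM replicate 3 (p up to 0.087). Neither passed in edgeR (adjusted p = 0.058 and 0.362). Cxcl12 itself rose in both lines and did not pass (0.44, adjusted p = 0.585).

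Falls were gained and lost as well. Sox11, a transcription factor of progenitor cells, stood at 0.444, 0.266 and 0.0922 FPM in control GM against 0.0576, 0.0197 and 0.0368 FPM in control DM3, and 34.8, 34.8 and 32.8 FPM in genomic GM against 2.77, 1.45 and 1.03 FPM in genomic DM3. Genomic cells fell without overlap. Control, at most 0.444 FPM, also fell without overlap, but its response on log2(FPM + 1) was not called (-0.28, adjusted p = 0.506). The interaction was -3.45 (SE 0.48, adjusted p = 0.000251). On recovered reads edgeR did not call it (-1.56, adjusted p = 0.617). Psrc1, a microtubule protein of the p53 list, had a fall called in genomic cells alone, from 28 ± 5.67 to 34.7 ± 2.92 FPM in control and from 12.2 ± 2.02 to 3.8 ± 0.308 FPM in genomic cells (-1.76, adjusted p = 0.00314), as did Foxf2, a forkhead factor, from 9.46 ± 1.31 to 7.46 ± 0.747 FPM in control and from 26.2 ± 6.58 to 7.52 ± 0.654 FPM in genomic cells (-1.35, adjusted p = 0.00252). E2f3, a cell cycle transcription factor, did the same, from 57.3 ± 5.65 to 57.3 ± 7.11 FPM in control and from 55.5 ± 4.48 to 32.7 ± 2.25 FPM in genomic cells (-0.74, adjusted p = 0.00938). Among lost falls, U90926 and Xkr5 fell in control, U90926 from 5.8, 3.68 and 14.1 to 1.11, 0.355 and 0.424 FPM (2.22, adjusted p = 0.00333) and Xkr5 from 8.16, 7.56 and 8.37 to 1.07, 1.01 and 1.12 FPM (2.08, adjusted p = 1.03e-05). In the genomic line both were at most 0.168 FPM, and edgeR gave the opposite sign without a call. Nefm, a neurofilament, stood at 136, 106 and 242 FPM in control GM against 2.9, 4.14 and 4.46 FPM in control DM3, and 4.18, 5.17 and 7.86 FPM in genomic GM against 0.653, 0.497 and 0.195 FPM in genomic DM3. Both lines fell, from a far lower level in genomic cells (2.80 (SE 0.35, adjusted p = 8.85e-05)), and edgeR did not call it (0.0691). Its partner Nefl fell from 265 ± 61.6 to 14.4 ± 3.48 FPM in control and from 112 ± 38.2 to 18.3 ± 3.48 FPM in genomic cells (1.59, adjusted p = 0.00595) and did pass (0.0354). Both belong to the neuronal list, in which 5 of 26 tested genes were higher and 3 lower, beside 3.56% and 5.25% of all genes. The list's median was -0.08. With the pairing block 7 were higher and 4 lower, and in edgeR 1 was higher and none lower.

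Turned responses numbered 92, and each of those described here was called in both edgeR and DESeq2. The control and genomic libraries separated completely, in opposite directions, in 145 of the 1074 genes, beside 1.41% of all tested genes. The 1074 genes were selected for a difference in response in these same libraries, so a higher share is built into the selection. Slc12a2, the sodium, potassium and chloride cotransporter (ENSMUSG00000024597, chromosome 18, 57878678 to 57946821), stood at 87.7, 94.2 and 91.5 FPM in control GM against 51.9, 61.3 and 59.7 FPM in control DM3, and 126, 120.1 and 106 FPM in genomic GM against 341, 304 and 257 FPM in genomic DM3. Control fell and genomic cells rose, each without overlap (2.00 (SE 0.22, adjusted p = 3.09e-05)). Atp6v0e2, a subunit of the vacuolar proton pump, was at 8.79, 5.95 and 7.56 FPM in control GM against 4.44, 3.39 and 2.54 FPM in control DM3, and 3.55, 1.72 and 2.23 FPM in genomic GM against 4.97, 6.36 and 6.87 FPM in genomic DM3. Again the 2 lines moved apart without overlap (1.97 (SE 0.35, adjusted p = 0.00168)). Slc16a1, a transporter of lactate and pyruvate, was at 254, 253 and 248 FPM in control GM against 177, 160.5 and 174 FPM in control DM3, and 224, 244 and 212 FPM in genomic GM against 295, 257 and 295 FPM in genomic DM3. The changes were small and the libraries separated in both lines (0.88 (SE 0.13, adjusted p = 0.000472)).

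In the other direction, Apln, the peptide ligand apelin (ENSMUSG00000037010, chromosome X, 48025146 to 48034853), stood at 63.2, 66.8 and 79.9 FPM in control GM against 127, 155 and 155 FPM in control DM3, and 93.9, 76.9 and 82.7 FPM in genomic GM against 37.9, 27.8 and 26.8 FPM in genomic DM3. The lines began alike in GM, with overlapping libraries, and parted in DM3 (-2.48 (SE 0.25, adjusted p = 1.46e-05)). The genomic response was also below the spliced one, by -1.22 (adjusted p = 0.00551). Unc5c, a netrin receptor, was at 17.6, 20.4 and 13.1 FPM in control GM against 57.1, 57.4 and 55.7 FPM in control DM3, and 14.4, 10.8 and 3.21 FPM in genomic GM against 5.52, 3.22 and 3.18 FPM in genomic DM3. Control rose without overlap, while genomic GM replicate 3 lay within the range of genomic DM3 (-2.61 (SE 0.51, adjusted p = 0.00406)). The fall in genomic cells was -0.91 (adjusted p = 0.046). Unc5c stood at 6.9, 6.2 and 3.2 FPM in spliced GM and 3.55, 2.77 and 4.36 FPM in spliced DM3. Its genomic and spliced responses were not called different (adjusted p = 0.643). Smad6 stood at 2.29, 1.88 and 1.66 FPM in control GM against 3.13, 2.8 and 4.13 FPM in control DM3, and 4.9, 4.96 and 5.33 FPM in genomic GM against 3.05, 2.85 and 2.36 FPM in genomic DM3. It rose in control and fell in genomic cells without overlap. Kcnf1, a potassium channel subunit, was at 20.9, 21.3 and 26.5 FPM in control GM against 24.9, 37.1 and 37.7 FPM in control DM3, and 7.33, 7.9 and 9.12 FPM in genomic GM against 5.74, 4.38 and 5.76 FPM in genomic DM3. The control groups overlapped, and its call (-1.04, adjusted p = 0.0173) was lost without control DM3 replicate 2 or genomic DM3 replicate 2 (p up to 0.0535). 9930111J21Rik2 (-2.36, adjusted p = 0.00501) has the RefSeq synonym Irgb5, a member of the interferon-inducible GTPase family.

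**Figure D4:**
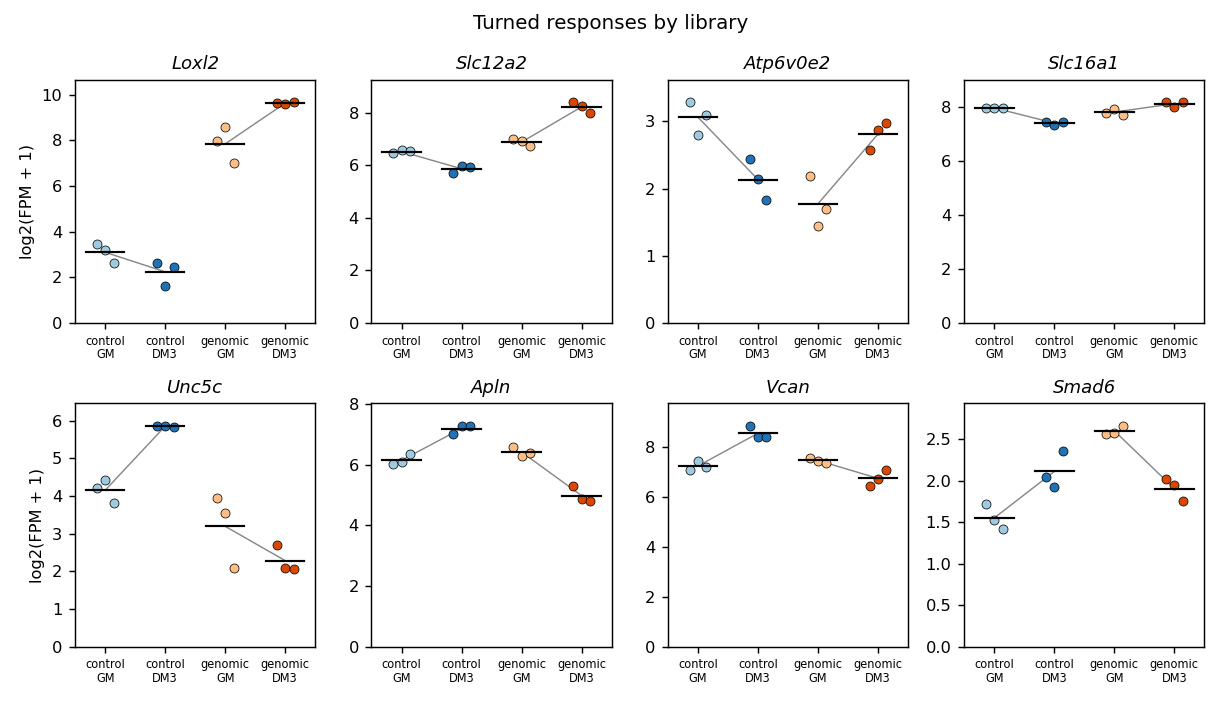
Genes with called responses of opposite sign in the 2 lines, by library, as log2(FPM + 1) on the y axis, with group means as bars. The upper row falls in control and rises in genomic cells, and the lower row does the reverse. Unc5c is the one gene shown in which a genomic GM library overlaps genomic DM3.

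The genes of the cell cycle fell in both lines. All 71 tested mitosis genes fell in both lines, and 2 of them fell further in genomic cells: Pttg1 (-1.43, adjusted p = 0.049) and Cdc25b (-0.83, adjusted p = 0.0172). The call of Pttg1 was lost whichever of the 12 libraries was left out (p up to 0.11). Ccnb1 and Cdk1, which drive entry into mitosis, did not pass (adjusted p = 1.0 and 0.895). All 60 genes of DNA replication fell in control and 59 in genomic cells, with E2f2 (1.54, adjusted p = 0.0458) higher and Pold3 (-0.59, adjusted p = 0.0234) lower. The call of E2f2 was lost whichever of the 12 libraries was left out (p up to 0.105). That of Pold3 was lost without control GM replicate 1, control DM3 replicates 1 or 2, genomic GM replicates 1 or 3 or genomic DM3 replicate 1 (p up to 0.0587). The replication list had more calls in the blocked fit (with the pairing block 7 higher and 3 lower), and its median was 0.29. None of 80 ribosomal protein genes was called in limma or edgeR, at a median of -0.14 and with 2 at an unadjusted p under 0.05. With the block for pairing within a medium 8 were lower. Of 81 genes of oxidative phosphorylation, 2 were higher and Ppargc1a was lower, at a median of 0.16 (with the pairing block 8 higher and 2 lower). The 2 were Atp5g3 (0.77, adjusted p = 0.0369) and Ndufs8 (0.52, adjusted p = 0.0483). The call of Atp5g3 was lost on leaving out any of 10 of the 12 libraries, all but control GM replicate 2 or control DM3 replicate 1 (p up to 0.101). That of Ndufs8 was lost on leaving out any of 9 of the 12 libraries, all but control GM replicate 2, control DM3 replicate 1 or genomic GM replicate 3 (p up to 0.124). Of these 81, 44 fell in control and 29 in genomic cells.

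Of 46 tested genes of cholesterol and fatty acid synthesis, 39 had a negative interaction, the median was -0.60 against 0.03 for all genes, and 2 were called: Acacb (-1.08, adjusted p = 0.0218) and Lpin1 (-0.94, adjusted p = 0.0482). The call of Acacb was lost without control GM replicates 1 or 3, control DM3 replicate 3, genomic GM replicate 2 or genomic DM3 replicates 1 or 2 (p up to 0.0589). That of Lpin1 was lost on leaving out any of 9 of the 12 libraries, all but control GM replicate 2, control DM3 replicate 1 or genomic GM replicate 3 (p up to 0.116). Neither passed in edgeR (adjusted p = 0.0632 and 0.0719). In control 7 of the 46 fell and 6 rose, and in genomic cells 27 fell and 3 rose. With the block for pairing within a medium, 15 of the 46 were lower and none higher.

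Glycolysis genes had 3 higher and 1 lower of 46: Slc16a1, Slc2a3 (0.59, adjusted p = 0.011) and Aldoc (0.85, adjusted p = 0.0198), the last 2 at most 0.97 FPM, and Hk1 (-0.73, adjusted p = 0.00415), a hexokinase with a rise called in control alone. The call of Aldoc was lost without control DM3 replicates 2 or 3 or genomic DM3 replicates 2 or 3 (p up to 0.0568). Calls made up 8.7% of the glycolysis list, beside 8.81% of all genes. With the pairing block 5 were higher and 9 lower, beside 25.0% of all genes. In the stress list 1 of 41 was called: Mthfd2, a mitochondrial folate enzyme, fell from 217 ± 12.6 to 46.3 ± 2.09 FPM in control and from 290.2 ± 33.3 to 131 ± 6.7 FPM in genomic cells (1.07, adjusted p = 0.0042). Ddit3 (-1.17, adjusted p = 0.118) and Atf4 (0.40, adjusted p = 0.144) did not pass, though both did with the pairing block (adjusted p = 0.0275 and 0.0484), and the list then had 5 higher and 4 lower. Of 48 genes of proteolysis and autophagy 4 were lower, led by Npc2, a lysosomal cholesterol carrier with a rise called in control alone, from 279 ± 32.5 to 838 ± 65 FPM in control and from 207 ± 11.2 to 218 ± 8.5 FPM in genomic cells (-1.51 (SE 0.20, adjusted p = 0.000176)), and the list held more calls in the blocked fit (with the pairing block 2 higher and 9 lower). Calls without the block made up 8.33% of the proteolysis list, beside 8.81% of all genes. The muscle ubiquitin ligases Fbxo32 (0.46) and Trim63 (0.27) rose in both lines and did not pass. Gem, a small GTPase of the immediate early list, had a rise called in control alone, from 6.5 ± 2.04 to 31.6 ± 3.76 FPM in control and from 4.72 ± 0.838 to 5.78 ± 1.47 FPM in genomic cells (-1.91, adjusted p = 0.000803). Zfp36l1, which promotes mRNA decay, rose in both lines and less in genomic cells (-1.26, adjusted p = 0.0024). Jund, an AP-1 factor, had a rise called in genomic cells alone (0.69, adjusted p = 0.0247), and the interaction was lost without control GM replicate 1, control DM3 replicate 2, genomic GM replicates 1 or 3 or genomic DM3 replicates 1 or 3 (p up to 0.0682). Fos did not pass (1.77, adjusted p = 0.52), its control GM libraries spreading from 5.85 to 116 FPM, and passed with the pairing block (0.00771).

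**Figure D5:**
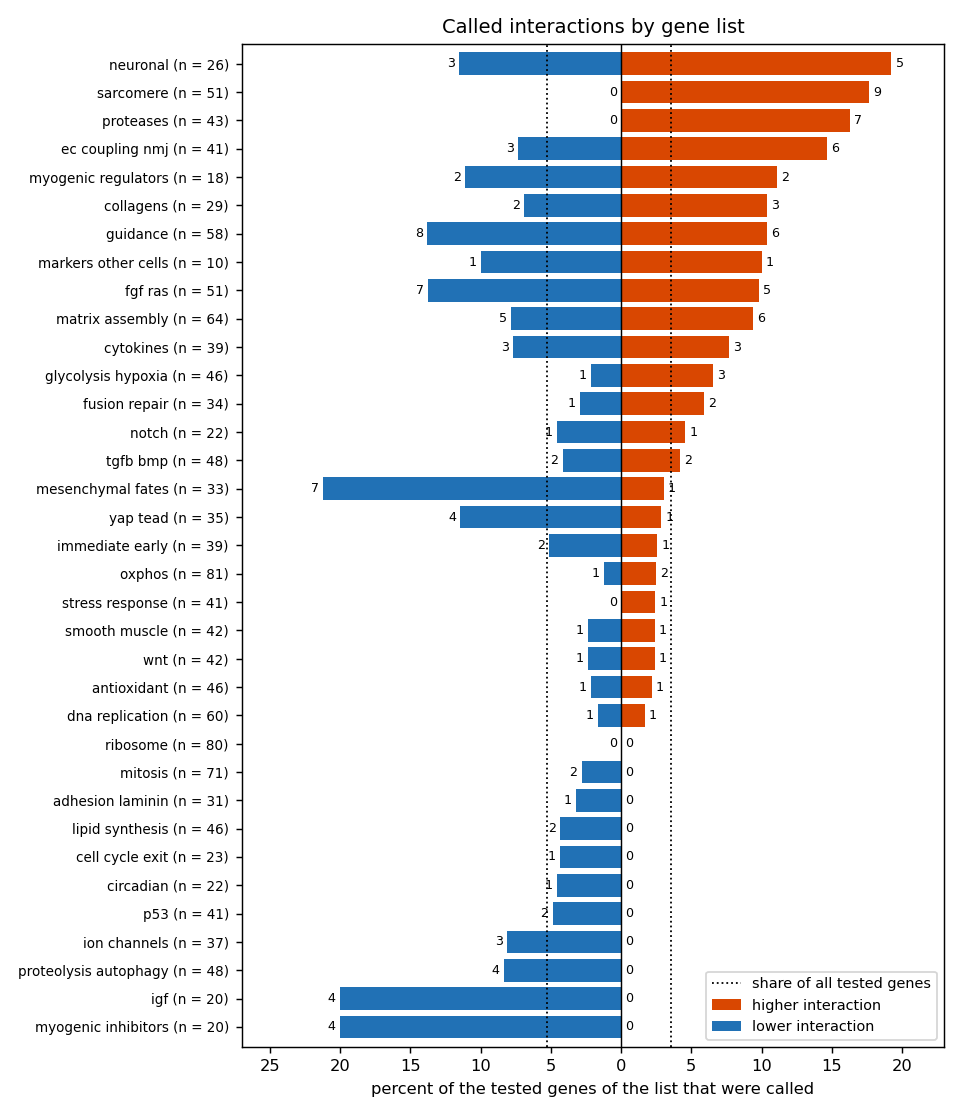
Called interactions, without the pairing block, in each gene list outside the interferon lists, as a percent of the list's tested genes (x axis), to the right for higher and to the left for lower, with the number of genes at each bar. Dotted lines mark the shares over all tested genes, 3.56% higher and 5.25% lower. In this fit the sarcomere and protease lists have calls on the higher side only. The insulin-like growth factor, inhibitor, proteolysis and lipid lists are among those with calls on the lower side only. With the pairing block all of these except the lipid list have calls on both sides. The lipid calls are 4.35% of its tested genes, below the share over all genes.

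For comparison, 145 of 192 tested interferon-stimulated genes were called, 144 of them lower, at a median of -1.92 (with the pairing block 1 higher and 157 lower). Of 27 genes of interferon sensing 3 were called, all lower (with the pairing block 1 higher and 12 lower). Oas3 (-5.95), Oas2 (-5.69) and Ifi44 (-5.65) had the lowest values. The summed level of the first list, 213 genes, went from 4561 to 8122 FPM in control GM to 32030 to 43890 FPM in control DM3, and in genomic cells from 3699 to 4816 FPM to 6464 to 6727 FPM. The lists did not hold every such gene. F830016B08Rik, the lowest of the genes named outside them at -4.55 (SE 0.30, adjusted p = 2.12e-07), has the RefSeq synonym Ifgga4, and it stood at 36.9, 23.8 and 15.9 FPM in control DM3 and at most 0.124 FPM in the other 9 libraries. Gm4841 (-3.07) and Gm12185 (-3.33) are relatives by their synonyms Ifgga3 and Irgb2b1, and in all 5 of the 1074 calls belong to that GTPase family. Plac8 (-3.06, adjusted p = 0.0186) rose in both lines, from 4.76 ± 2.23 to 204 ± 42.5 FPM in control and from 4.37 ± 2.21 to 21.8 ± 2.99 FPM in genomic cells, and lost its call without control GM replicate 3 (adjusted p = 0.0503) and in edgeR (0.0749). RP23-458B6.6 (-3.06, adjusted p = 1.23e-05) had a rise called in control alone.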

How the data were processed

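Poly(A) RNA of C2C12 cells was sequenced on an Illumina instrument, per the labels' protocols. STAR, HTSeq and DESeq2 and the genome build mm10 are named in the submitters' processing notes, without roles or versions, and the gene annotation is not given in the sources used here. The authors deposited a table of FPM, a signal of reads scaled by library size, for 35275 genes in 18 libraries, and tables of their own comparisons with log2 changes and adjusted p-values, from which the deposited values quoted here come. Every FPM value was a whole multiple of 1 read to within 0.05 reads (100.0% of values, largest distance 0.0354), so whole reads were recovered for the count tests.

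The main test, run in R 4.3.3 with limma 3.58.1, took log2(FPM + 1) of all 18 libraries in 1 fit (12 residual degrees of freedom) and Benjamini-Hochberg adjustment over 13869 genes. Every adjusted p in the text is from that fit unless another tool is named. Alternatives were edgeR 4.0.16 and DESeq2 1.42.0 on recovered reads, pseudocounts of 0.1 and 0.5 FPM, no filter and a filter of 2 FPM, quantile and equal-sum scaling, the 12 libraries alone, a replicate block, and each library left out in turn. The fits were tested on simulated data. A count of 0 allows up to 3 reads, at most 0.063 FPM, for counting error only.

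Same-numbered control and genomic libraries of a medium deviated together (r from 0.274 to 0.726 in 6 of 6 pairs, against -0.586 to 0.014 for other numbers). Deviations were taken from group means, so high values for the same number in part force low ones for other numbers. The numbers were taken to pair the lines within a medium, which the labels do not state. Across media same-numbered pairs gave 0.052 to 0.417, above 0.1 in 9 of 12. The block within each medium was chosen after seeing the data.

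The comparison, its gene lists and the rule for named genes were chosen with earlier results of these data known. The rule names Myod1, Myog and Myh3, the 12 highest and 12 lowest called interactions outside the interferon lists with a group mean of at least 5 FPM, the 3 largest in each class and direction under the same minimum, and up to 4 called genes and the first 2 genes of each list. Genes named beyond it are marked as named after their values were seen. Of 2024 list entries, 2021 matched a gene in the table, 29 of them by another name. Promoters are from RefSeq, build GRCm38.p6. For 7 of the 12 libraries 1 label of the cell source disagreed with the title, and titles and genotype labels were used. Some genes that the rule names are not reported here.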

Additional observations from a re-analysis of the deposited data

Results flagged for a closer look

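The response to differentiation differed between control and MUNC genomic cells for 1222 of 13869 genes by the interaction test itself, and between MUNC genomic and MUNC spliced cells for 1460. Both comparisons use the same 6 genomic libraries. Called responses had opposite signs in control and genomic cells for 98 genes, 92 of them outside the interferon lists. The turned genes with the largest interactions were Loxl2 (2.64), Slc12a2 (2.00) and Atp6v0e2 (1.96), which fell in control and rose in genomic cells, and Unc5c (-2.61), Apln (-2.48) and 9930111J21Rik2 (-2.36), which did the reverse.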

How the results depend on the processing

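Under the block for pairing within each medium the interaction was called for 3474 genes (1827 higher, 1647 lower, 52.6% higher against 40.4% without it), and the genomic against spliced difference for 4076. With a replicate block across media these were 2265 (1072 and 1193) and 2716. Neither block lost a call among the 128 called genes named here. edgeR called 777 (442 lower). An absolute log2 change of at least 1 left 601 (171 higher, 430 lower), and 686 for the genomic against spliced comparison. Leaving out 1 library gave 784 to 1345 calls, 268 to 549 higher and 516 to 796 lower, and 930 to 1597 for genomic against spliced. The lowest of these were without control DM3 replicate 2 (784) and genomic DM3 replicate 3 (930), and without genomic GM replicate 1 the latter was 953. No scaling moved the median of all genes by more than 0.05. Of the 128 called genes, 92 kept their call without any 1 library, edgeR lost 43 and DESeq2 23, and 57 of them kept both direction and call in every alternative run. Signs changed under edgeR and DESeq2 for Smoc2 (0.91 and 1.2), U90926 (-0.81 and -0.39), Xkr5 (-1.07 and -0.44), Col4a6 (-0.10 and -0.42), Cilp (-2.32 and -2.67), Plxna4 (0.91 and 1.0) and Musk (-1.33 and -1.40, and -0.29 with a pseudocount of 0.1 FPM), and under DESeq2 for Klhl40 (-0.17). In each of these 1 line was near 0 FPM. For genomic against spliced, signs changed under edgeR, DESeq2 and a pseudocount of 0.1 FPM for Myh3 (0.885, 0.961 and 0.855), Myl1 (2.029, 2.16 and 0.884) and Gm7325 (4.626, 4.981 and 1.042), under the first 2 for Mybph (5.038 and 4.52), under quantile scaling for Ryr1 (-0.043), and across fits without 1 library for Myog (-0.106 to 0.428), Spry1 (-0.088 to 0.539) and Ryr1 (-0.1 to 0.269). Uncalled genes changed sign under quantile scaling (Col3a1 -0.035, Fn1 -0.68, Lama2 0.16) or across fits without 1 library: Ccnb1 -0.19 to 0.21, Col1a1 -0.008 to 0.73, Col3a1 -0.24 to 0.51, Fn1 -0.17 to 0.56, Lama2 -0.39 to 0.12, Fgf2 -0.019 to 0.37, Spry2 -0.033 to 0.36 and Igf1 -0.78 to 0.30. The cause was not tested. Depth limits values under about 0.063 FPM, the level of 3 reads in the shallowest library.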
